A study of Homo sapiens with 6 samples.

Results

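Rnaseh2a, the catalytic subunit of ribonuclease H2, was the only gene of the library whose symbol begins with Rnaseh. The members described here are the 4 guides against it, of 1826 guides against 459 genes, and they were chosen by symbol alone. Guides 1 and 2 (Rnaseh2a_sg1 and Rnaseh2a_sg2) sat at the first position of the dual-guide constructs, and guides 3 and 4 (Rnaseh2a_sg3 and Rnaseh2a_sg4) at the second position. The library held no guide against another gene whose symbol begins with Rnaseh, so no subunit was set against another. The comparison was made between guides of this 1 gene and between its pairings with 458 other genes. The symbols are written in the mouse style although the cells are human. The human gene RNASEH2A lies on the plus strand at chr19:12806584-12813640 of GRCh38.p14 and is annotated as protein coding. Where the guides cut within it, and their sequences, are not used here.

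Ribonuclease H2 is a nuclear enzyme of a catalytic subunit and a pair of accessory subunits. It cuts next to single ribonucleotides that DNA polymerases have built into DNA, which starts ribonucleotide excision repair, and it digests the RNA strand of RNA-DNA hybrids. Ribonucleotides left in DNA can be cut by topoisomerase 1, and cells without the enzyme are known to rely on ATR signalling. A guide whose knockout slows growth becomes rarer in a pooled screen as the population doubles, and one whose knockout speeds growth becomes more frequent.

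The screen used eHAP iCas9 clone 6, a p53 null clone of a near-haploid human line with Cas9 under doxycycline control. Each cell carried a construct with 1 guide at each position, against a pair of DNA damage response genes, against 1 gene beside a non-targeting guide, or with a non-targeting guide at both positions. There were 3 groups of 2 replicate libraries each, and all groups shared the clone, the p53 null genotype and the library. Irradiated cells received 0.6 Gy of X-rays 24 hours after each split and were collected on day 15 after 10 population doublings. Untreated cells were collected on day 14 after 12 population doublings, and day 0 cells were the starting population. The irradiated group therefore differed from the day 14 group in dose, time and doublings, whose effects cannot be told apart. Nothing in the labels says whether the 2 replicates were separate cultures, so the p-values measure only the spread between libraries, which may be technical.

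The libraries held 71481191 and 86587125 reads in irradiated cells, 61962789 and 61185707 in day 14 cells, and 84399152 and 86542435 in day 0 cells. In 2 libraries about as many constructs were missing as were present: irradiated replicate 2 had no read for 49.4% of the 863546 guide pairs and day 14 replicate 1 had none for 54.1%. In the other 4 libraries between 1.93% and 7.62% had none. These 2 libraries are called incomplete below.

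The Rnaseh2a constructs showed this gap as the library as a whole did. Of 3719 constructs that carried a Rnaseh2a guide, irradiated replicate 1 lacked 193 and irradiated replicate 2 lacked 1796. Day 14 replicate 1 lacked 2055, day 14 replicate 2 lacked 125, and day 0 replicates 1 and 2 lacked 157 and 34. Of the constructs missing from day 14 replicate 1, 1437 were also missing from irradiated replicate 2, which is 69.9% of its missing constructs and 80.0% of those missing from irradiated replicate 2. Over all constructs of the library these shares were 73.6% and 80.5%. Across the 3719 Rnaseh2a constructs, log2 reads of the 2 incomplete libraries correlated at r = 0.640, whereas each incomplete library correlated with the other replicate of its own group at r = 0.323 (irradiated) and r = 0.303 (day 14). Irradiated replicate 1 and day 14 replicate 2 correlated at r = 0.767. These correlations are across constructs that share guides and libraries, and they are given as a description.

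The first question was whether any Rnaseh2a guide changed in frequency when all its constructs were added up. Each sum ran over 929 to 933 constructs, so it averaged over the partner gene, and counts were scaled between libraries within a position by TMM (a trimmed mean of log ratios). Guides 1 and 2 stayed at nearly the same scaled count in all 6 libraries. Guides 3 and 4 were low in 1 library, day 0 replicate 1, and were higher in the other 5.

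Guide 1 had 56606 and 52426 scaled reads in irradiated cells, 53409 and 55568 in day 14 cells, and 52899 and 56439 in day 0 cells. Guide 2 had 101053 and 107552 in irradiated cells, 101571 and 107113 in day 14 cells, and 100681 and 101655 in day 0 cells. For guide 1 the 3 groups overlapped fully. For guide 2 the groups also overlapped, with the lowest count in day 0 replicate 1 and the highest in irradiated replicate 2.

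On the log2 scale guide 1 changed by -0.0048 in day 14 against day 0 cells, with a 95% interval from -0.19 to 0.18. Its difference was -0.0041 in irradiated against day 0 cells and 0.00072 in irradiated against day 14 cells, with intervals of the same width. Guide 2 differed by 0.04 in day 14 against day 0 cells, with an interval from -0.10 to 0.19. It also differed by 0.04 in irradiated against day 0 cells and by -0.00054 in irradiated against day 14 cells. Both guides lay within the range of the 25 non-targeting guides of the first position, which ran from -0.18 to 0.16 in day 14 against day 0 cells and from -0.17 to 0.16 in irradiated against day 0 cells.

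Guide 3 had 46697 and 55369 scaled reads in irradiated cells, 59187 and 49014 in day 14 cells, and 31288 and 50724 in day 0 cells. Guide 4 had 71957 and 68956 in irradiated cells, 65474 and 71128 in day 14 cells, and 44325 and 72097 in day 0 cells. For both guides the low value was that of day 0 replicate 1, and day 0 replicate 2 lay among or above the later libraries, so the groups overlapped.

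The fitted log2 difference of guide 3 was 0.40 in day 14 against day 0 cells (95% interval -0.21 to 1.01) and 0.32 in irradiated against day 0 cells (-0.30 to 0.93). That of guide 4 was 0.23 (-0.33 to 0.79) in day 14 against day 0 cells and 0.28 (-0.28 to 0.83) in irradiated against day 0 cells. Between irradiated and day 14 cells guide 3 differed by -0.08 (-0.70 to 0.53) and guide 4 by 0.04 (-0.51 to 0.60). The 36 non-targeting guides of the second position ranged from -0.41 to 0.41 in day 14 against day 0 cells and from -0.30 to 0.45 in irradiated against day 0 cells. Guides 3 and 4 lay inside both ranges. Guide 3 was near the upper end in day 14 against day 0 cells, above the 95th percentile of these non-targeting guides (0.36). It also lay above 97.5% of all guides tested there, a share that pools both positions. Among gene guides in this comparison the 95th percentile was 0.40 at the second position and 0.14 at the first.

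None of the 4 Rnaseh2a guides passed edgeR's quasi-likelihood test at an adjusted p under 0.05 in any of the 3 comparisons, and of all 1849 guides tested 0% passed in each. Across all guides an unadjusted p under 0.05 was reached by 79 in day 14 against day 0 cells, 57 in irradiated against day 0 cells and 83 in irradiated against day 14 cells, none of them a Rnaseh2a guide. DESeq2 called 24, 27 and 22 guides in the same comparisons, again without a Rnaseh2a guide. A miss of the threshold does not show that the guides were stable: the intervals of guides 1 and 2 were 0.18 and 0.14 log2 units to either side, and those of guides 3 and 4 were 0.61 and 0.56.

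The values of guides 3 and 4 rested on day 0 replicate 1. Without that library the log2 difference of guide 3 was 0.09 in day 14 against day 0 cells and 0.0092 in irradiated against day 0 cells, and that of guide 4 was -0.08 and -0.03. Without day 0 replicate 2 in its place, guide 3 stood at 0.79 and 0.71 and guide 4 at 0.63 and 0.68, and edgeR then called both guides in both comparisons (adjusted p between 0.00016 and 0.0015). In that setting the low library stood alone for day 0 and its spread was taken from the other groups, and 313 and 311 of the 1849 guides were called in all. Over every alternative tried, the adjusted p of these 4 values reached up to 0.999.

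The low counts of guides 3 and 4 in day 0 replicate 1 were shared by many guides of the second position. Guide 3 had 1.62 times and guide 4 had 1.63 times as many scaled reads in day 0 replicate 2 as in replicate 1, against 1.07 times for guide 1 and 1.01 times for guide 2. Below a log2 ratio of -0.5 between day 0 replicates 1 and 2 lay 264 of 927 second-position guides (28.5%), against 2 of 922 first-position guides. Among non-targeting guides, 11 of 36 at the second position and 0 of 25 at the first position lay below that ratio, so it was not limited to guides that cut a gene. Single constructs with reads in both day 0 libraries were compared after scaling to the total of each library, without TMM. This count was lower in replicate 1 for 588 of 859 with guide 3 and for 666 of 893 with guide 4. For guide 1 it was lower in 474 of 871 constructs and for guide 2 in 459 of 918. What set these day 0 counts apart was not tested.

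The 4 guides differed in how common they were at the start. In day 0 cells guide 2 averaged 101168 scaled reads, above 74.8% of the 922 guides of its position, whose median was 70488. Guide 1 averaged 54669 and lay above 34.9% of them. At the second position, where the median of 927 guides was 64063, guide 3 averaged 41006 and lay above 25.6%, and guide 4 averaged 58211 and lay above 44.0%. A guide's count at day 0 also reflects how it was represented in the cloned library, which is not analysed here.

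Within a position the 2 guides against Rnaseh2a were paired with nearly the same partners. Guides 1 and 2 had 930 and 933 constructs, and guides 3 and 4 had 929 and 931. Their ratio cancels the scaling between libraries. In the incomplete libraries the partners with reads differed more: in irradiated replicate 2, guide 1 lacked 502 constructs and guide 2 lacked 348. Guide 1 over guide 2 was 0.560 and 0.487 in irradiated cells, 0.526 and 0.519 in day 14 cells, and 0.525 and 0.555 in day 0 cells. Guide 3 over guide 4 was 0.649 and 0.803 in irradiated cells, 0.904 and 0.689 in day 14 cells, and 0.706 and 0.704 in day 0 cells. The 2 day 0 values of guide 3 over guide 4 nearly coincided although both guides were low in replicate 1. For this ratio both later groups spanned the day 0 values, and for guide 1 over guide 2 the irradiated cells did.

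The largest of the 6 differences in these ratios was 0.16 on the log2 scale, for guide 3 over guide 4 in day 14 against day 0 cells. No difference passed a two-sided exact permutation test (p between 0.667 and 1, n = 2 libraries a group, Benjamini-Hochberg adjusted p = 1 over 6 comparisons). With 2 libraries a group this test cannot give a p below 0.333, so it could not have shown a difference between guides of any size.

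The second question was how each guide behaved when Rnaseh2a was the only gene cut, which is read from constructs with a non-targeting partner. Each first-position guide was paired with 36 such partners and each second-position guide with 25, so the counts were much smaller. They were scaled by the constructs with a non-targeting guide at both positions. Of these, 69.7% had no reads in day 14 replicate 1 and 66.6% had none in irradiated replicate 2. In the complete libraries between 3.08% and 16.1% had none. Scaled in this way, the counts of guide 2 and guide 4 were higher in irradiated than in day 0 cells in every library. That held for 15.2% of all 1793 guides tested, and neither guide 2 nor guide 4 passed the test.

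Guide 4 with non-targeting partners had 1702 and 2270 reads in irradiated cells, 1543 and 1220 in day 14 cells, and 1146 and 1813 in day 0 cells. After scaling these were 1713 and 1972 in irradiated cells, 2057 and 1445 in day 14 cells, and 997 and 1509 in day 0 cells. The irradiated and day 0 libraries did not overlap, while a day 14 library lay below the higher day 0 library. The log2 difference was 0.56 in irradiated against day 0 cells (95% interval -0.22 to 1.34) and 0.48 in day 14 against day 0 cells (-0.30 to 1.26). Without day 0 replicate 1 these were 0.29 and 0.21, and without day 0 replicate 2 they were 0.89 and 0.81.

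Guide 2 had 2943 and 3120 scaled reads in irradiated cells, 3865 and 2699 in day 14 cells, and 2590 and 2922 in day 0 cells. Its irradiated libraries lay just above both day 0 libraries, and the difference was 0.14 (-0.44 to 0.72). It was 0.053 without day 0 replicate 1 and 0.23 without day 0 replicate 2. Of all 1793 guides tested with non-targeting partners, 15.2% had both irradiated libraries above both day 0 libraries.

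Guide 1 had 1141 and 1995 scaled reads in irradiated cells, 1957 and 1182 in day 14 cells, and 1634 and 1502 in day 0 cells. The day 0 libraries lay between the low and the high library of both later groups, and the fitted differences were 0.0012 in day 14 and 0.00025 in irradiated against day 0 cells, with intervals of 0.89 to either side. Guide 3 had 807 and 1371 in irradiated cells, 1021 and 862 in day 14 cells, and 728 and 888 in day 0 cells. Its difference was 0.43 in irradiated against day 0 cells (-0.60 to 1.46) and 0.22 in day 14 against day 0 cells (-0.81 to 1.25). The groups of both guides overlapped.

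For all 4 guides the highest scaled count came from an incomplete library. There guide 2 had reads in 21 of 36 non-targeting constructs (day 14 replicate 1), and the other guides had reads in a smaller part of theirs. In irradiated replicate 2, guide 1 had reads in 12 of 36 non-targeting constructs, and 1 of them held 614 of its 2296 reads, against 27 constructs with reads in irradiated replicate 1. In the same library guide 4 had reads in 8 of 25 constructs, and 1 of them held 1186 of its 2270 reads. In day 14 replicate 1 guide 4 had reads in 7 of 25. In day 0 replicate 2 guide 4 had reads in all 25. Without irradiated replicate 2 the difference of guide 3 in irradiated against day 0 cells was -0.0019, and that of guide 1 was -0.46.

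None of the 4 guides with non-targeting partners passed edgeR's test in any comparison, nor did any of the 1793 guides tested (0% in each). An unadjusted p under 0.05 was reached by 19 guides in the comparison of day 14 with day 0 cells, by 15 in that of irradiated with day 0 cells and by 22 in that of irradiated with day 14 cells, none of them against Rnaseh2a. DESeq2 called 0 in each, with 38, 31 and 35 guides at an unadjusted p under 0.05.

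Added over all 4 guides, the Rnaseh2a constructs with non-targeting partners held 6562 and 9735 reads in irradiated cells, 6676 and 5225 in day 14 cells, and 6840 and 8194 in day 0 cells. Relative to constructs without a targeting guide, the gene's log2 difference was 0.24 in day 14 against day 0 cells (95% interval -0.19 to 0.67) and 0.24 in irradiated against day 0 cells (-0.20 to 0.67). In irradiated against day 14 cells it was -0.0023 (-0.44 to 0.43). In both later groups the sum was lower in the complete library than in the incomplete one.

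The 2 differences against day 0 share the day 0 libraries and are not independent. Both also rested on an incomplete library: without day 14 replicate 1 the difference was -0.05 in day 14 against day 0 cells, and without irradiated replicate 2 it was 0.05 in irradiated against day 0 cells. Neither Rnaseh2a nor any other of the 459 genes was called by edgeR (0% in each comparison). An unadjusted p under 0.05 was reached by 18 genes in day 14 cells against day 0, by 12 with irradiated cells in their place and by 13 between irradiated and day 14 cells, and DESeq2 called 0, with 12, 14 and 10.

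Other genes of the pathway, grouped by role, showed no called change either. Of 11 measured genes of ribonucleotide excision and flap processing, the steps that follow the cut of ribonuclease H2, none was called, and their median log2 difference was 0.14 in day 14 against day 0, 0.0030 in irradiated against day 0 and -0.10 in irradiated against day 14 cells. The medians over all 459 genes were 0.06, 0.01 and -0.08. Of 12 measured genes that handle topoisomerase 1 cleavage and blocked DNA ends, none was called. They had medians of 0.11, -0.07 and -0.19. In irradiated against day 14 cells 11 of the 12 (91.7%) lay below 0, against 64.3% of all genes. The lists were chosen with earlier results of these data known, and this share was not tested. Of 16 genes of RNA-DNA hybrid processing none was called, and their medians were 0.09, 0.02 and -0.0053. For 14 genes of replication stress signalling the medians were -0.05 in each comparison, and for 12 genes of homologous recombination they were 0.14, 0.06 and -0.07, with none called. At 0.24, Rnaseh2a lay above 78.6% of all genes in day 14 against day 0 cells and above 88.2% in irradiated against day 0 cells.

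The third question was whether a second knockout changed the frequency of Rnaseh2a constructs beyond what the single guides add up to. All constructs of a gene pair, 8 where complete, were added up. Each pair's count was set against an expectation from the typical level of both genes in that library, so that a log2 value of 0 means a pair as frequent as its 2 genes predict. Of 458 Rnaseh2a pairs none was called by edgeR in any comparison, and of all 105111 pairs 0% were called in each.

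An unadjusted p under 0.05 was reached by 2 Rnaseh2a pairs in day 14 against day 0, 1 in irradiated against day 0 and 1 in irradiated against day 14 cells, against 443, 372 and 874 of all pairs. limma called 0, 1 and 1 of all pairs, none with Rnaseh2a. The Rnaseh2a pairs were centred where all pairs were: their median difference was -0.0042, 0.02 and -0.0026 in the 3 comparisons, against 0.0098, 0.02 and 0.0048 for all pairs. A typical interval reached 1.38 log2 units to either side in both comparisons with day 0.

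The pair of Rnaseh2a with Parp1, the poly(ADP-ribose) polymerase that binds DNA breaks, had 544 and 1147 reads in irradiated cells, 1266 and 539 in day 14 cells, and 610 and 875 in day 0 cells. The higher count of each later group lay in an incomplete library, and the groups overlapped. Its departure from expectation differed by 0.76 in day 14 against day 0 cells (95% interval -0.62 to 2.14) and by 0.27 in irradiated against day 0 cells (-1.10 to 1.64). Without the incomplete library these were -0.14 and -0.26.

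The pair with Atr, the kinase that senses stalled replication forks, had 431 and 62 reads in irradiated cells, 215 and 337 in day 14 cells, and 550 and 513 in day 0 cells. The lowest was the incomplete irradiated library, at -3.07 log2 units from expectation, while irradiated replicate 1 at -0.11 lay beside day 0 replicate 2 at -0.13. The difference was -1.0 in irradiated against day 0 cells (-3.30 to 1.30) and -0.38 in day 14 against day 0 cells (-2.66 to 1.90). Without irradiated replicate 2 it was -0.17 in irradiated against day 0 cells, and without day 14 replicate 1 it was -0.25 in day 14 against day 0 cells.

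The pair with Fen1, the nuclease that removes the flap in ribonucleotide excision repair, had 916 and 969 reads in irradiated cells, 1 and 805 in day 14 cells, and 810 and 1055 in day 0 cells. Only day 14 replicate 1 was low, where that single read came from 1 of 8 constructs, and the other 5 libraries held 0.29 to 0.60 log2 units more than expected. The fitted difference was -0.79 in day 14 against day 0 cells (-4.67 to 3.09), and without that library it was 0.21. In irradiated against day 0 cells it was 0.27 (-3.58 to 4.12).

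The pair with Apex2, a nuclease that trims blocked DNA ends, had 678 and 1733 reads in irradiated cells, 952 and 558 in day 14 cells, and 525 and 835 in day 0 cells, with the high value of each later group again in its incomplete library. Its difference was 0.94 in irradiated against day 0 cells (-0.41 to 2.30), and 0.22 without irradiated replicate 2. The pair with Brca2, which acts in homologous recombination, had 554 and 832 reads in irradiated cells, 436 and 557 in day 14 cells, and 674 and 671 in day 0 cells. Its departures from expectation overlapped between all groups, and its difference was 0.14 in irradiated against day 0 cells (-0.82 to 1.10) and -0.02 in day 14 against day 0 cells (-0.98 to 0.94). None of these 5 partners reached an unadjusted p under 0.05.

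Among the 3 pairs of smallest p in day 14 against day 0 cells was that with Xrn2, an RNA exonuclease that acts in transcription termination. It had 919 and 629 reads in day 14 cells and 386 and 610 in day 0 cells, a difference of 1.24 (95% interval 0.06 to 2.41, adjusted p = 0.969, edgeR). The pair with Kdm1a, a histone demethylase, differed by 1.60 (0.05 to 3.16), and that with Fancl, a ubiquitin ligase of the Fanconi anaemia pathway, by 1.40 (-0.02 to 2.81), both at an adjusted p of 0.969. In each of these 3 pairs the highest of the 6 departures from expectation was that of the incomplete day 14 library. Without that library the differences were 0.72 for Xrn2, 0.38 for Kdm1a and 0.40 for Fancl.

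Against day 0, the irradiated cells had their smallest p for the pair with Helq, a DNA helicase, with 1053 and 3503 reads in irradiated cells and 863 and 1169 in day 0 cells. The difference was 1.33 (0.01 to 2.64, adjusted p = 1.00, edgeR), and without the incomplete irradiated library it was 0.23. The same pair stood at 1.35 (0.03 to 2.66) against day 14 cells, which had 635 and 764 reads. The pair with Mta1, a subunit of a chromatin remodelling complex, differed by 1.35 in irradiated against day 0 cells (-0.13 to 2.84), and by 0.36 without that library.

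The pair with Wdr48, a cofactor of deubiquitinating enzymes, did not depend on 1 library in this way. It had 752 and 916 reads in irradiated cells, 393 and 425 in day 14 cells, and 380 and 528 in day 0 cells, and its departures from expectation were higher in both irradiated libraries than in the other 4. That held for 20 of the 458 Rnaseh2a pairs (4.37%) and for 5.42% of all pairs, and this pair was picked for its small p. Its difference was 0.89 in irradiated against day 0 cells (-0.08 to 1.86, adjusted p = 1.00, edgeR), and it ranged from 0.81 to 0.96 when each library was left out in turn. The adjusted p over all alternatives lay between 0.119 and 1. In irradiated replicate 2, 4 of the 8 constructs of this pair had reads, and 1 of them held 53.9% of the reads. In day 14 replicate 1, 3 of 8 had reads, and 1 of them held 54.2%. All 8 had reads in irradiated replicate 1.

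In irradiated against day 14 cells the pairs with Mrnip, a protein that stabilises the MRN break sensor, and with Ccdc155 both differed by -1.69 (-3.40 to 0.02 for Mrnip, -3.44 to 0.06 for Ccdc155). Mrnip pairs had 362 and 142 reads in irradiated cells against 681 and 433 in day 14 cells. Ccdc155 pairs had 378 and 99 in irradiated cells against 667 and 513 in day 14 cells. For both, the departures of the irradiated libraries lay below those of day 14, as they did for 44 of the 458 Rnaseh2a pairs (9.61%) and 10.1% of all pairs. The 2 pairs were picked for their small p in this comparison, and their lowest count was that of the incomplete irradiated library. Without it the differences were -1.12 and -1.0. The higher day 14 departure was also that of an incomplete library, day 14 replicate 1. It was 1.44 against 0.35 in replicate 2 for Mrnip, and 0.29 against -0.39 for Ccdc155. Over all alternatives tried, the difference ranged from -2.66 to -0.47 for Mrnip and from -3.07 to -0.62 for Ccdc155.

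With both incomplete libraries left out, each later group held 1 library, which was assumed to vary as day 0 does. In that setting edgeR called the Rnaseh2a pairs named below, among many pairs of other genes. These Rnaseh2a pairs are given by size only, and they were named after their values were seen. The pair with Cdk9, a kinase that releases paused RNA polymerase II, stood at 1.03 in day 14 against day 0 cells. In irradiated against day 14 cells the Cdk9 pair stood at -0.97. It was called in both. It had 1523 reads in the remaining irradiated library, 2677 in that of day 14, and 1244 and 2039 in day 0 cells. A single construct held 1466 of those 2677 reads, against 478 of 1244 and 695 of 2039 for the highest construct in day 0 cells. In all 6 libraries together the first of these values was 0.66 (-0.22 to 1.54).

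The same setting called, in irradiated against day 0 cells, the pairs with Chchd4 at 1.08, Nsmce3 at 1.03, Eme2 at -1.41 and Wdhd1 at -1.27. Nsmce3 belongs to the SMC5/6 complex, Eme2 is a partner of the nuclease MUS81, Wdhd1 acts at replication forks and Chchd4 imports proteins into mitochondria. The Wdhd1 pair was the one of these 4 with a like value in both irradiated libraries, with 177 and 168 reads against 432 and 536 in day 0 cells. Its day 14 libraries had 95 and 245 reads, so it was also low there. Over all 6 libraries it stood at -1.37 (-3.19 to 0.44, adjusted p = 1.00, edgeR). A single construct held 125 of its 168 reads in irradiated replicate 2. In irradiated replicate 1 a single construct also held 394 of 756 reads of the Chchd4 pair (52.1%) and 1110 of 1696 reads of the Nsmce3 pair (65.4%). In day 0 replicates 1 and 2 the highest construct held 33.0% and 25.4% for Chchd4. For Nsmce3 it held 43.1% and 47.6% there. The Eme2 pair turned in sign over all 6 libraries, at 1.03, with 177 and 2044 reads in irradiated cells against 534 and 415 in day 0 cells.

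The departures of the 458 Rnaseh2a pairs from expectation varied far more in the incomplete libraries than in the complete ones. Their SD was 0.38 and 1.37 log2 units in irradiated replicates 1 and 2, 1.95 and 0.34 in day 14 replicates 1 and 2, and 0.32 and 0.24 in day 0 replicates 1 and 2. Between replicates of a group, the departures correlated over the 458 partners at r = -0.01 in irradiated, -0.03 in day 14 and 0.14 in day 0 cells. Between groups they correlated at r = 0.62 for day 14 replicate 2 with day 0 replicate 2, 0.53 for irradiated replicate 1 with day 14 replicate 2, and 0.48 for irradiated replicate 2 with day 14 replicate 1. A pair's departure was thus shared more between certain libraries of different groups than between libraries of the same group.

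The same pair can be read with Rnaseh2a at the first or at the second position, on separate constructs. Over the 458 partners, the change since day 0 read with Rnaseh2a first and with Rnaseh2a second correlated at r = -0.07 in irradiated replicate 1 and at r = 0.01 in day 14 replicate 2. In irradiated replicate 2 it correlated at r = 0.10 and in day 14 replicate 1 at r = 0.0034. The rank correlations were -0.05 and 0.11 in irradiated replicates 1 and 2, and 0.0037 and -0.01 in day 14 replicates 1 and 2. All are descriptions across partners that share guides and libraries.

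The 4 constructs that carried Rnaseh2a guides at both positions held 278 and 208 reads together in irradiated cells, 257 and 239 in day 14 cells, and 120 and 443 in day 0 cells. Scaled to the total of each library (RPM), this was 3.89 and 2.40 in irradiated cells, 4.15 and 3.91 in day 14 cells, and 1.42 and 5.12 in day 0 cells. The day 0 replicates lay at both ends, below and above all 4 later libraries. The exact binomial intervals of these 2 values (1.18 to 1.70 and 4.65 to 5.62) did not overlap. The construct of guides 2 and 4, the more common guide of each position, held 107 and 142 reads in irradiated cells, 255 and 161 in day 14 cells, and 60 and 191 in day 0 cells. The construct of guides 1 and 3 had 45 and 0 reads in irradiated cells, 0 and 29 in day 14 cells, and 28 and 50 in day 0 cells. A count of 0 allows up to 3 reads, and these intervals and limits cover counting error only, since PCR reads without molecular identifiers are not independent molecules.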

How the data were processed

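The authors deposited whole-number read counts per guide pair, 1 column per library, taken as raw since the columns sum to different totals. HISAT2 2.1.0 and the build hg38 are named in the submitters' processing notes, without their role. Each library's own table held the same counts as the combined tables, and 2 columns of the combined tables belonged to no sample here and were not used. Guides were summed over all partners (mean count of at least 2000) or over non-targeting partners (at least 20), and gene pairs over their constructs, with a prior count of 2 and an expectation fitted in 25 iterations. All features were fitted with edgeR 4.0.16's quasi-likelihood test in R 4.3.3 over the 6 libraries, with Benjamini-Hochberg adjustment over each whole table and a threshold of 0.05. DESeq2 1.42.0 or limma 3.58.1, other scalings, no filter, a block and left-out libraries were the alternatives. edgeR's biological coefficient of variation was 9.84% for guides over all partners and 57.0% for gene pairs.

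Same-numbered libraries did not deviate together (correlation of replicate differences over guides -0.58 for irradiated and day 14, 0.11 for irradiated and day 0, -0.05 for day 14 and day 0), so the numbers were not used as pairs. The members were chosen by symbol, and the lists of other genes were chosen with earlier results of these data known. Pairs were named where they passed the threshold, else the 3 of smallest p in each comparison, together with the 5 measured partners Parp1, Fen1, Atr, Brca2 and Apex2.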

Additional observations from a re-analysis of the deposited data

How the results depend on the processing

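The log2 differences of single guides, of the gene and of its named pairs were recomputed under 591 alternative values of 54 results. Of these, 514 kept their direction and their side of the threshold, 4 passed the threshold and 73 changed sign, in 28 results, none of which had passed the threshold, and 40 of the sign changes came from leaving out 1 library. The count of called Rnaseh2a guides over all partners went to 2 without day 0 replicate 2, in day 14 and in irradiated against day 0 cells, and no other omission of 1 library gave a called Rnaseh2a guide, gene or pair. The count of called pairs was 1, 4 and 1 (day 14 against day 0, irradiated against day 0, irradiated against day 14) without both incomplete libraries.

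When each library was left out in turn, these ranges crossed 0. In day 14 against day 0 cells, over all partners, guide 1 ran from -0.051 to 0.043 and guide 4 from -0.081 to 0.63. With non-targeting partners guide 1 ran from -0.41 to 0.32, guide 2 from -0.030 to 0.49 and the gene from -0.045 to 0.48. The pair with Brca2 ran from -0.15 to 0.10, that with Fen1 from -9.0 to 0.21 and that with Parp1 from -0.14 to 1.31. In irradiated against day 0 cells, over all partners, guide 1 ran from -0.060 to 0.049, guide 2 from -0.0033 to 0.088 and guide 4 from -0.032 to 0.68. With non-targeting partners guide 1 ran from -0.46 to 0.35 and guide 3 from -0.0019 to 0.76. The pair with Brca2 ran from -0.058 to 0.31 and that with Parp1 from -0.26 to 0.65. Against day 14, the irradiated cells over all partners had guides 1 to 4 running from -0.056 to 0.053, -0.048 to 0.044, -0.21 to 0.059 and -0.013 to 0.11. With non-targeting partners they ran from -0.46 to 0.41, -0.35 to 0.17, -0.22 to 0.54 and -0.16 to 0.35, and the gene from -0.24 to 0.28. The pairs with Apex2, Atr, Brca2 and Parp1 ran from -0.54 to 0.82, -2.78 to 0.21, -0.039 to 0.33 and -1.04 to 0.41.

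Without both incomplete libraries the sign turned in day 14 against day 0 cells for guide 1 over all partners (0.023), guides 1 and 2 with non-targeting partners (-0.41 and -0.030), the gene (-0.045) and the pairs with Brca2 (0.10), Fen1 (0.21) and Parp1 (-0.14). It turned in irradiated against day 0 cells for guides 1 and 2 over all partners (0.049 and -0.0033), guides 1 and 3 with non-targeting partners (-0.46 and -0.0019) and the pairs with Brca2 (-0.058) and Parp1 (-0.26). In irradiated against day 14 cells it turned for guides 2 and 3 with non-targeting partners (0.12 and -0.095), the gene (0.094) and the pairs with Atr (0.076) and Brca2 (-0.16). These settings have fewer libraries.

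With the replicate number as a replicate block, guide 1 with non-targeting partners stood at -0.00045 in day 14 against day 0 and at 0.0033 in irradiated against day 14 cells, edgeR called 0, 1 and 1 of all guides over all partners and 0, 1 and 1 of all gene pairs, and no Rnaseh2a guide, gene or pair was called. Crossed numbers of the irradiated libraries, an alternative chosen after seeing the data, gave 0, 0 and 0 guides and 0, 1 and 1 pairs, with sign changes of guide 1 over all partners (-8.2e-05, irradiated against day 14), of guide 1 with non-targeting partners (-0.056 in day 14 and -0.064 in irradiated against day 0 cells) and of the gene (0.0040, irradiated against day 14).

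Other scalings, tools and filters turned single values near 0, and the cause was not tested. In irradiated against day 14 cells, guide 1 over all partners stood at -0.00099 with DESeq2 and -0.0030 without a filter, and guide 2 at 0.0016 with total counts. With non-targeting partners guide 1 stood at 0.071 with both TMM and DESeq2, and the gene at 0.063 with TMM and 0.060 with DESeq2. In day 14 against day 0 cells guide 1 with non-targeting partners stood at -0.036 with TMM and -0.028 with DESeq2. No filter was tried for gene pairs, since every pair passed it, and no difference between subunits was run, since the library held 1 Rnaseh gene. With 2 libraries a group the intervals were wide, and the median one of a Rnaseh2a pair reached 1.38 log2 units to either side in both comparisons with day 0.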
